A study of Mus musculus with 2 samples.

Results

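Dendritic cells of the infarcted neonatal mouse heart were 123 of 6149 kept cells in single-cell RNA sequencing (scRNA-seq) of sorted leukocytes, with 69 of 3380 from WT hearts and 54 of 2769 from Lyve1 KO hearts. The deposited tables held 10998 cell barcodes in all. A cell was kept with at least 1000 detected genes and at most 10% mitochondrial UMIs (unique molecular identifiers, each standing for 1 captured RNA molecule). Members were chosen by their UMI counts of marker genes, and a kept cell counted as dendritic when it met at least 1 of 3 conditions. The first was at least 3 UMIs of Cd209a with at least 20 of H2-Ab1 (Cd209a cells, 25 WT and 16 KO), the second at least 3 UMIs of Xcr1 and Clec9a together (Xcr1/Clec9a cells, 32 WT and 30 KO), and the third at least 3 UMIs of Siglech with fewer than 10 UMIs of the complement genes C1qa, C1qb and C1qc per 10000 (Siglech cells, 18 WT and 12 KO). Cells with at least 3 UMIs of Cd79a or at least 2 of Cd3e were dropped, which removed 1 KO cell. A cell that met 2 conditions was counted in both groups (6 WT and 4 KO cells).

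The WT library was made from a pool of 5 hearts of WT mice and the KO library from a pool of 5 hearts of Lyve1 KO mice (a Lyve1-/- line). Myocardial infarction (MI) was induced in both sets on postnatal day 2, and hearts were collected after 7 days from mice then aged 9 days. Cells positive for CD45 and negative for the dead-cell stain 7-AAD were sorted and sequenced with 10x Genomics GEM-X 5′ chemistry. With 1 library per genotype and no record in the counts of the heart a cell came from, no test between genotypes was possible, and all intervals below are 95% intervals for counting error only. The WT library held 67968938 UMIs (median 16060 per kept cell) and the KO library 61555917 (median 17251). No dendritic cell was among the 9 barcode sequences found in both libraries.

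Dendritic cells take up antigen, show peptides on MHC class II to CD4 T cells and grow out of precursors that need the receptor Flt3. Conventional dendritic cells fall into a type that presents material of dead cells on MHC class I and depends on Irf8 and Batf3 (cDC1), and a type with more Irf4 that mainly activates CD4 T cells (cDC2). Plasmacytoid dendritic cells (pDC) depend on Tcf4, sense viral nucleic acid and release type I interferon. After MI, dendritic cells can carry heart antigens through lymphatic vessels to the draining lymph nodes, a route that uses the chemokine receptor Ccr7.

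The conditions themselves set the levels of Cd209a, H2-Ab1, Xcr1, Clec9a, Siglech and the complement genes, and limited Cd79a and Cd3e, so these levels are a description. Levels are given as CPM, the UMIs of a gene over all UMIs of the summed cells of a group, scaled to 1e6. Cd209a (chr8:3743397-3748984, mm10) stood at 1047 CPM (WT) and 1012 CPM (KO) in Cd209a cells, Clec9a at 357 and 360 CPM in Xcr1/Clec9a cells, and Siglech at 1904 and 1617 CPM in Siglech cells. Few cells lay at the limits of Cd209a and Siglech, and more lay near that of Xcr1 and Clec9a. Among cells with enough H2-Ab1, 1 WT and 3 KO cells had 2 UMIs of Cd209a and 1 WT and 1 KO cell had exactly 3. For Xcr1 and Clec9a together, 27 WT and 21 KO cells had 1 UMI, 7 WT and 2 KO cells had 2 UMIs and 3 WT and 2 KO cells had 3. For Siglech, 0 WT and 1 KO cell had 2 UMIs and 1 WT and 0 KO cells had 3. A further 11 WT and 10 KO cells had at least 3 UMIs of Cd209a but too little H2-Ab1.

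The label was checked with genes that no condition used. Flt3, the receptor of the dendritic cell growth factor, was measured at 101 CPM (WT) and 75.4 CPM (KO) in Cd209a cells, at 176 and 197 CPM in Xcr1/Clec9a cells and at 247 and 252 CPM in Siglech cells, against 3.63 CPM in the other kept cells of either library. C1q-high macrophages (at least 30 C1q UMIs per 10000) had 0.312 and 0.234 CPM. After thinning each cell to 5000 UMIs, which left out shallower cells (48 WT and 31 KO B and T cells and 1 Siglech cell per library), Flt3 was seen in 53.1% of WT (95% Clopper-Pearson interval 34.7–70.9) and 53.3% of KO (34.3–71.7) Xcr1/Clec9a cells and in 1.31% and 1.30% of B and T cells (unthinned 93.8%, 90.0%, 3.44% and 3.50%). Zbtb46, a transcription factor of conventional dendritic cells, stood at 67.3 and 46.1 CPM in Cd209a cells, 80.3 and 65.7 CPM in Xcr1/Clec9a cells and 53.8 and 25.2 CPM in Siglech cells, against 6.90 and 5.22 CPM in the other kept cells. Siglech cells that met no other condition had only 5 UMIs of Zbtb46 in WT and 0 in KO, so it is no check of their label. Of the 10 genes of the pan-dendritic list, 9 were outside the conditions. In each group 7 were at least 2-fold higher than in the other kept cells in both libraries, though not the same 7. Cd74, the class II invariant chain, was among them in every group. It is no independent check in Cd209a cells, whose condition asked for the class II gene H2-Ab1. The libraries' own background of genes with such a ratio was 2.62% for Cd209a cells, 3.48% for Xcr1/Clec9a cells and 7.82% for Siglech cells. It covers higher genes only, so counts of genes lower than in the other kept cells have no background and are descriptions. The dendritic cells were deeper than the rest, with medians of 31023 and 37354 UMIs (Cd209a), 37248 and 41984 UMIs (Xcr1/Clec9a) and 19472 and 24569 UMIs (Siglech), against 15746 and 17008 UMIs in the other kept cells.

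**Figure D1:**
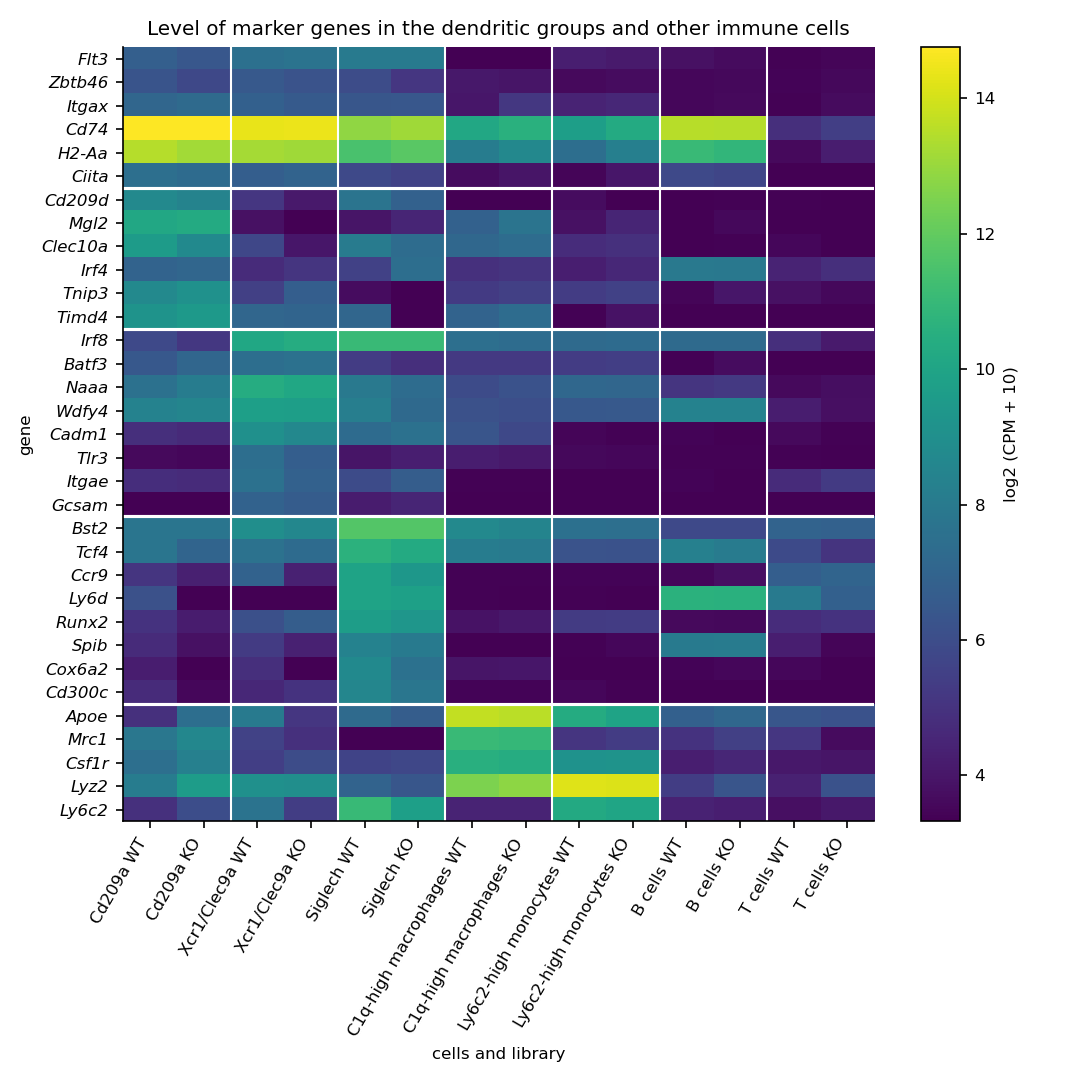
Level of marker genes, as log2 (CPM + 10) of summed UMIs, for the 3 dendritic groups and 4 other classes of kept cells in each library; columns are groups and libraries, and white lines separate general dendritic, Cd209a-group, Xcr1/Clec9a-group, Siglech-group and macrophage or monocyte genes. Irf8 was high in Xcr1/Clec9a and Siglech cells and low in Cd209a cells, and Flt3 was seen in all 3 groups.

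Cd209a cells had the highest MHC class II levels of the 3 groups, which is a description, since their condition asked for H2-Ab1. H2-Aa, the class II alpha chain, was measured at 11576 CPM (WT) and 9293 CPM (KO), against 478 and 599 CPM in the other kept cells. H2-Eb1, a class II beta chain, stood at 9183 and 7367 CPM against 344 and 427 CPM. Cd74, the invariant chain that guides class II through the cell, was at 27716 and 27669 CPM. Both H2-Aa and H2-Eb1 had at least 1 UMI in all 25 WT and 16 KO cells, and they were also among the leading genes of Xcr1/Clec9a cells. Class II promoters are known for a conserved module (the S, X and Y boxes) through which the coactivator Ciita acts. The 120 bases before the start sites are shown because these genes led 2 of the 3 groups, with the core of the Y box, ATTGG or its reverse complement CCAAT, in capitals (RefSeq, GRCm38.p6, 5′ to 3′ on the gene's strand).
H2-Aa, chr17:34287824-34287943, minus strand: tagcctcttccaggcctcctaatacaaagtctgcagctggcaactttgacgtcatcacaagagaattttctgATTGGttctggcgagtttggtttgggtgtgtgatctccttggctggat
H2-Eb1, chr17:34305747-34305866, plus strand: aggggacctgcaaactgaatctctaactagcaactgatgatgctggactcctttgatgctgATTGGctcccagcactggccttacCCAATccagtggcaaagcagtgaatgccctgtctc
The match began 48 bases before the start site in H2-Aa and 59 and 35 bases before it in H2-Eb1. Either pentamer was in 21.3% of the 32851 promoter windows of this length, so a match alone is a description of the letters.

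By the rule for leading genes of Cd209a cells (the 10 with the highest ratio to the other kept cells in both libraries, outside the genes of the conditions, again a description), the first was Cd209d, a lectin beside Cd209a on chromosome 8 (chr8:3871824-3878555), with 410 CPM (WT) and 342 CPM (KO) against 0.884 and 0.320 CPM. Mgl2, a galactose-binding lectin of cDC2, stood at 1160 and 1244 CPM and was in 15 of 25 WT and 10 of 16 KO cells. The class II chaperone subunit H2-DMb1 (797 and 952 CPM), Tnip3 (411 and 540 CPM) and Olfm1 (201 and 193 CPM) were also among the 10. The phosphatidylserine receptor Timd4 (575 and 694 CPM), known from resident macrophages, was in only 11 WT and 6 KO cells, and 1 cell held 235 of its 513 WT UMIs and another 418 of its 497 KO UMIs. Of 16 genes on the cDC2 list 13 could be compared with the other cells, of which 6 were at least 2-fold higher and 2 at least 2-fold lower in both libraries. Irf4, the transcription factor of this type, was at 115 CPM (WT) and 127 CPM (KO), against 40.8 and 54.3 CPM in the other kept cells. Irf8 was at 48.2 and 26.5 CPM, and Xcr1 was at 0 in all 41 cells (0 of 25 WT cells, interval to 13.7%).

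Maturation genes varied within the Cd209a group. At least 3 UMIs of Ccr7 were seen in 10 of 25 WT cells (40%, 21.1–61.3) and 4 of 16 KO cells (25%, 7.27–52.4). Cells with Ccr7 had more of the class II-linked activation gene Cd83 than those without, 1715 against 1149 CPM in WT and 1594 against 831 CPM in KO. The amino acid oxidase gene Il4i1 was at 197 against 95.8 CPM in WT and at 922 against 0 CPM in KO. Pdcd1lg2, which codes for the inhibitory ligand PD-L2, was at 128 against 42.6 CPM in WT and 149 against 1.97 CPM in KO, the last being a single UMI. Lyz2 was at 118 against 411 CPM in WT and 130 against 1043 CPM in KO, where 2 cells without Ccr7, 1 of them with 48.3 C1q UMIs per 10000, held 188 and 179 of the 530 UMIs. Csf1r was at 73.4 against 260 CPM and 101 against 390 CPM. Fscn1, the actin-bundling gene of fully mature migratory dendritic cells, was nearly absent, at 7.85 and 1.40 CPM. Cells with at least 3 UMIs each of Ccr7 and Fscn1 lay mostly outside the conditions (15 of 17 in WT and 6 of 6 in KO), made up 0.444% and 0.217% of kept cells and had Flt3 at 355 and 348 CPM. Of these outside cells, 1 KO cell had at least 3 UMIs of the B cell gene Cd79a.

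Xcr1/Clec9a cells held the cDC1 genes. Of the 16 genes on the cDC1 list, 14 could be compared, and 13 were at least 2-fold higher than in the other kept cells in both libraries, 0 lower. Naaa, a lysosomal amidase, was at 1331 and 1125 CPM against 52.5 and 59.6 CPM. Irf8 was at 1131 and 1335 CPM against 140 and 113 CPM, Wdfy4, which cDC1 need to present cell-bound antigen, at 871 and 838 CPM against 96.3 and 113 CPM, and the adhesion gene Cadm1 at 521 and 400 CPM against 47.9 and 18.7 CPM. Genes outside the list led as well. The interferon-inducible gene Ifi205 was at 975 and 852 CPM against 21.6 and 25.2 CPM, and the retrotransposon-derived gene Rtl8c at 291 and 207 CPM against 5.45 and 3.48 CPM. The germinal centre gene Gcsam, which is on the list, was at 110 and 90.0 CPM against 0.257 and 0.267 CPM. The cysteine protease inhibitor Cst3 stood at 21756 and 17807 CPM. For MHC class I presentation, 5 of 15 genes were at least 2-fold higher in both libraries (Tap1, Tap2, Psmb8, Psmb9 and Wdfy4). Tap1, a subunit of the peptide transporter, was at 293 and 178 CPM, and the immunoproteasome subunit Psmb9 at 566 and 495 CPM.

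Not every Xcr1/Clec9a cell had the full set. Xcr1 itself was at 0 in 12 of 32 WT and 12 of 30 KO cells, which then entered by Clec9a. Naaa and Wdfy4 were both found in 28 WT and 26 KO cells. H2-Ab1 was under 20 UMIs in 8 WT (25%, 11.5–43.4) and 5 KO cells (16.7%, 5.64–34.7). Of the 9 cells that also met the Siglech condition, 6 had 0 UMIs of H2-Ab1 and 20 to 73 UMIs of Tcf4, and the other 3 had 185 to 624 UMIs of H2-Ab1 and at most 2 of Tcf4. A single WT cell had 222 C1q UMIs per 10000 and carried 4 UMIs of H2-Ab1, so it went against the label of the group. It was not the only one, since the 6 cells with 20 to 73 UMIs of Tcf4, a gene of pDC, did so too. Another WT cell had 0 UMIs of H2-Ab1 and Irf8 and 16 of Tcf4. A further WT cell and a KO cell had 0 UMIs of Flt3, Irf8 and Naaa. All of these stayed in the group. Ccr7 at 3 or more UMIs was rare (2 WT and 3 KO cells). All UMIs of Ccl22 and Il12b in this group were in these cells, with Ccl22, a ligand for regulatory T cells, at 179 CPM in the 2 WT cells and 1692 CPM in the 3 KO cells, and Il12b, a subunit of IL-12, at 675 and 3621 CPM. A single WT cell held all 13 UMIs of Ccl22 and all 49 of Il12b, and 2 KO cells held 75 and 152 UMIs of Ccl22 and 143 and 345 of Il12b. Naaa in the same cells was at 386 and 193 CPM, against 1390 and 1235 CPM in the cells without Ccr7. Irf8 was likewise at 289 and 631 CPM against 1184 and 1418 CPM.

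Siglech cells carried the pDC genes. Of 20 genes on the pDC list, 19 could be compared and 16 were at least 2-fold higher than in the other kept cells in both libraries. Bst2, the tetherin gene that marks pDC, was at 3338 and 3345 CPM against 269 and 183 CPM, Tcf4, their lineage factor, at 1638 and 1262 CPM against 218 and 173 CPM, and the gut-homing receptor Ccr9 at 992 and 648 CPM against 11.0 and 16.2 CPM. Irf8 was at 2137 and 2159 CPM. Runx2 stood at 816 and 629 CPM, the surface gene Cd7 at 947 and 1073 CPM, the sodium pump subunit Atp1b1 at 910 and 610 CPM and the receptor Cd300c at 366 and 217 CPM. Gm21762, a predicted gene, came first by the lower of its ratios in the 2 libraries, with 459 and 419 CPM against 0.370 and 0.622 CPM. Upb1 (238 and 205 CPM), Grm8 (249 and 192 CPM) and Myh13 (176 and 142 CPM, and 0 in the other kept cells of both libraries) were also among the 10 leading genes. Of the type I interferon genes, Ifna4 and Ifnb1 were looked up and had 0 UMIs in the 3 groups.

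Siglech cells were also split by Ly6d, a surface gene of pDC and B cell precursors that is high in B cells too (1551 and 1536 CPM). Ly6d was present in 11 of 18 WT cells (61.1%, 35.7–82.7) and 5 of 12 KO cells (41.7%, 15.2–72.3). All 9 cells that met both the Xcr1/Clec9a and the Siglech condition had 0 UMIs of Ly6d. Cells without Ly6d had 318 CPM of Clec9a in WT (241–412) and 243 CPM (182–319) among KO cells, against 17.3 CPM (3.56–50.5) and 9.60 CPM (0.243–53.5, 1 UMI) in cells with it. This order rested on the cells of 2 groups, and without them Clec9a had 2 UMIs over the 2 WT cells and 1 UMI over the 3 KO cells that lacked Ly6d. Bst2 was at 2344 and 2640 CPM without Ly6d against 4365 and 4791 CPM with it. Without cells of 2 groups it was at 3178 CPM (2619–3821) against 4540 CPM (4221–4877) in WT and at 4554 CPM (4036–5121) against 4791 CPM (4379–5230) in KO, where the intervals overlap. Cox6a2 was then at 0 against 697 CPM in WT but 424 against 307 CPM in KO. MHC class II in the cells without Ly6d was held by few of them. Of these cells, 2 WT cells with 367 and 185 UMIs of H2-Ab1 and 1 KO cell with 624 also met the Xcr1/Clec9a condition, had 27, 55 and 47 UMIs of Naaa and at most 2 UMIs of Tcf4. The other cells without Ly6d had 0 UMIs of H2-Ab1 in WT and at most 12 in KO, and the cells with Ly6d had up to 36 and 59. Zbtb46 had 0 UMIs in the cells with Ly6d and 19 and 8 UMIs in those without, of which 14 and 8 were in cells of 2 groups.

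**Figure D2:**
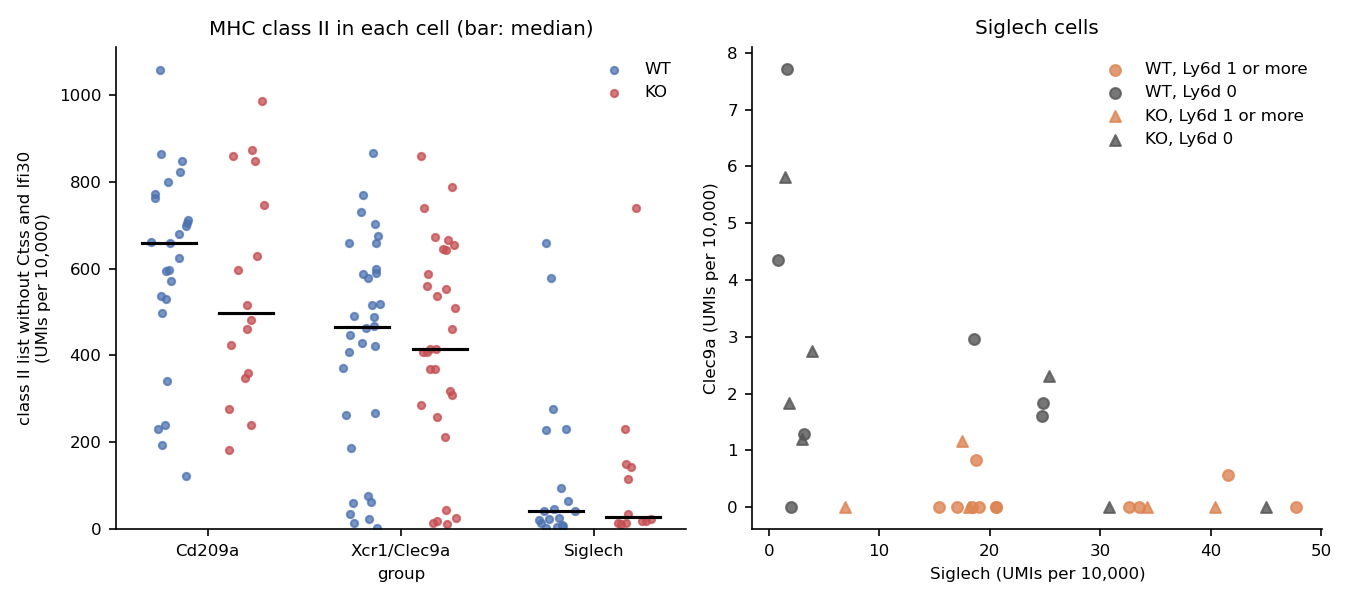
Left, MHC class II UMIs per 10000 (the class II list without Ctss and Ifi30) in every cell of each group, with bars at the median; WT Cd209a cells ranged from 122 to 1058 around a median of 660 and KO cells from 183 to 986 around 498. Right, Clec9a against Siglech UMIs per 10000 in the Siglech cells, by Ly6d and library; Ly6d-positive cells had little or no Clec9a.

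Of the genes on the Toll-like receptor list that could be compared, 0 of 5 in Cd209a cells, 3 of 10 in Xcr1/Clec9a cells (Tlr3, Tlr11 and Tlr12) and 1 of 5 in Siglech cells (Tlr12) were at least 2-fold higher than in the other kept cells in both libraries. In Xcr1/Clec9a cells 3 of the 10 were lower, a direction without a background share. Tlr3, the sensor of double-stranded RNA, reached 166 CPM in WT (144–190) but 95.5 CPM in KO (79.3–114) Xcr1/Clec9a cells, and at or under 9.44 CPM in the other groups. Tlr7, a sensor of single-stranded RNA, was at 73.7 and 66.1 CPM in Siglech cells, a level also found in C1q-high macrophages (80.0 and 74.5 CPM). Tlr9, a sensor of DNA, was at 68.0 and 34.6 CPM in Siglech cells and at most 26.0 CPM in the other dendritic groups. After thinning it was seen in 9 of 17 WT but 1 of 11 KO Siglech cells. Unthinned, the share of Siglech cells with Tlr9 was the same in WT and KO. Tlr11, which binds a protozoan profilin, was at 25.2 and 37.6 CPM in Xcr1/Clec9a cells and 0.209 and 0.195 CPM in the other kept cells, and its partner Tlr12 at 20.3 and 18.0 CPM in Xcr1/Clec9a cells and 56.7 and 75.5 CPM in Siglech cells. Unc93b1, which carries these receptors to the endosome, was found in all groups, at 296 and 297 CPM, 480 and 469 CPM, and 825 and 972 CPM in the same order of groups.

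Of the chemokine receptors that could be compared, 0 of 8 in Cd209a cells, 1 of 7 in Xcr1/Clec9a cells (Cxcr3) and 2 of 6 in Siglech cells (Ccr9 and Cxcr3) were higher than in the other kept cells by this measure. In the same order of groups 2, 2 and 1 were lower, again without a background share. Ccr2, the receptor for exit from bone marrow, was at 429 and 567 CPM in Cd209a cells, 277 and 429 CPM in Xcr1/Clec9a cells and 170 and 101 CPM in Siglech cells, against 941 and 923 CPM in Ly6c2-high monocytes. Cxcr3 was at 69.8 and 39.9 CPM in Xcr1/Clec9a cells, 102 and 72.4 CPM in Siglech cells and at most 1.12 CPM in Cd209a cells. The oxysterol receptor Gpr183 was at 309 and 440 CPM, 188 and 265 CPM, and 235 and 208 CPM. In Xcr1/Clec9a cells Ccr9 was at 110 CPM (WT) and 11.0 CPM (KO), but 4 cells of each library held all of these UMIs and 105 of the 136 WT UMIs were in 1 cell that also met the Siglech condition.

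**Figure D3:**
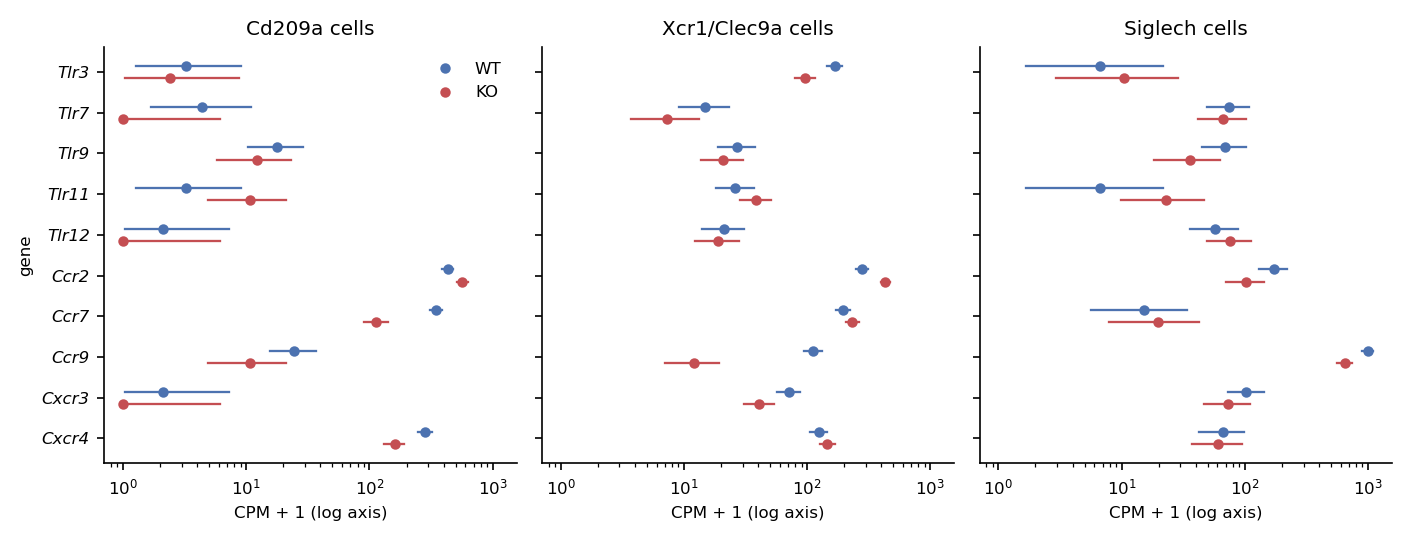
Level of 5 Toll-like receptors and 5 chemokine receptors (CPM + 1, log axis) in each group, WT and KO, with 95% exact Poisson intervals of counting error as lines. Tlr3 stood out in Xcr1/Clec9a cells and Ccr9 in Siglech cells. Ccr7 was at 345 CPM (WT) and 112 CPM (KO) in Cd209a cells and at 195 and 232 CPM in Xcr1/Clec9a cells. Among the latter, single cells held 232 of the WT UMIs and 127 and 165 of the KO UMIs. The share of cells with at least 3 UMIs of Ccr7 was higher in Cd209a cells in both libraries (40% and 25%, against 6.25% and 10%).

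Lyve1 checks the genotype labels. Lyve1 (chr7:110850607-110863239), the hyaluronan receptor of lymphatic endothelium and resident macrophages, was at 245 CPM (241–249) over all kept WT cells and 13.1 CPM (12.2–14.1) over all kept KO cells. C1q-high macrophages had 488 and 20.2 CPM. In dendritic cells it was at 2.58 CPM in WT (6 UMIs, all in 1 cell) and 13.9 CPM in KO (30 UMIs in 18 cells), so KO dendritic cells had the level of all kept KO cells. After thinning, Lyve1 was in 0 of 32 WT and 2 of 30 KO Xcr1/Clec9a cells (6.67%, 0.818–22.1), beside 0.375% of WT and 3.12% of KO B and T cells (unthinned 3.12%, 40%, 1.20% and 9.74%). Cd44, the other main hyaluronan receptor, was at 398 and 469 CPM in Cd209a cells, 437 and 445 CPM in Xcr1/Clec9a cells and 621 and 340 CPM in Siglech cells. Of 6 hyaluronan genes tested in Xcr1/Clec9a cells, 1 was at least 2-fold lower in KO as (CPM + 10), against 1.47% of all tested genes (Hmmr, 30.8 and 6.26 CPM, in 6 and 2 cells).

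Dendritic cells made up like shares of the WT and KO libraries within counting error. All dendritic cells were 2.04% (1.59–2.58) of kept WT and 1.95% (1.47–2.54) of kept KO cells, a difference of -0.0913 percentage points (95% Newcombe interval -0.791 to 0.632). Cd209a cells were 0.740% (0.479–1.09) and 0.578% (0.331–0.937), a difference of -0.162 points (-0.576 to 0.269). Xcr1/Clec9a cells were 0.947% (0.648–1.33) and 1.08% (0.732–1.54), a difference of 0.137 points (-0.367 to 0.672). Siglech cells were 0.533% (0.316–0.840) and 0.433% (0.224–0.756), a difference of -0.0992 points (-0.458 to 0.278). Counting error alone reached down to -0.576 points for Cd209a cells, so equal shares are not shown. The share depends on what else was sorted. B and T cells were more frequent in KO. Without such cells the denominators were 2739 WT and 1862 KO cells, which left out more cells than the B and T cell classes used above. Dendritic cells then stood at 2.52% in WT and 2.90% in KO (0.381 points higher, -0.558 to 1.39).

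**Figure D4:**
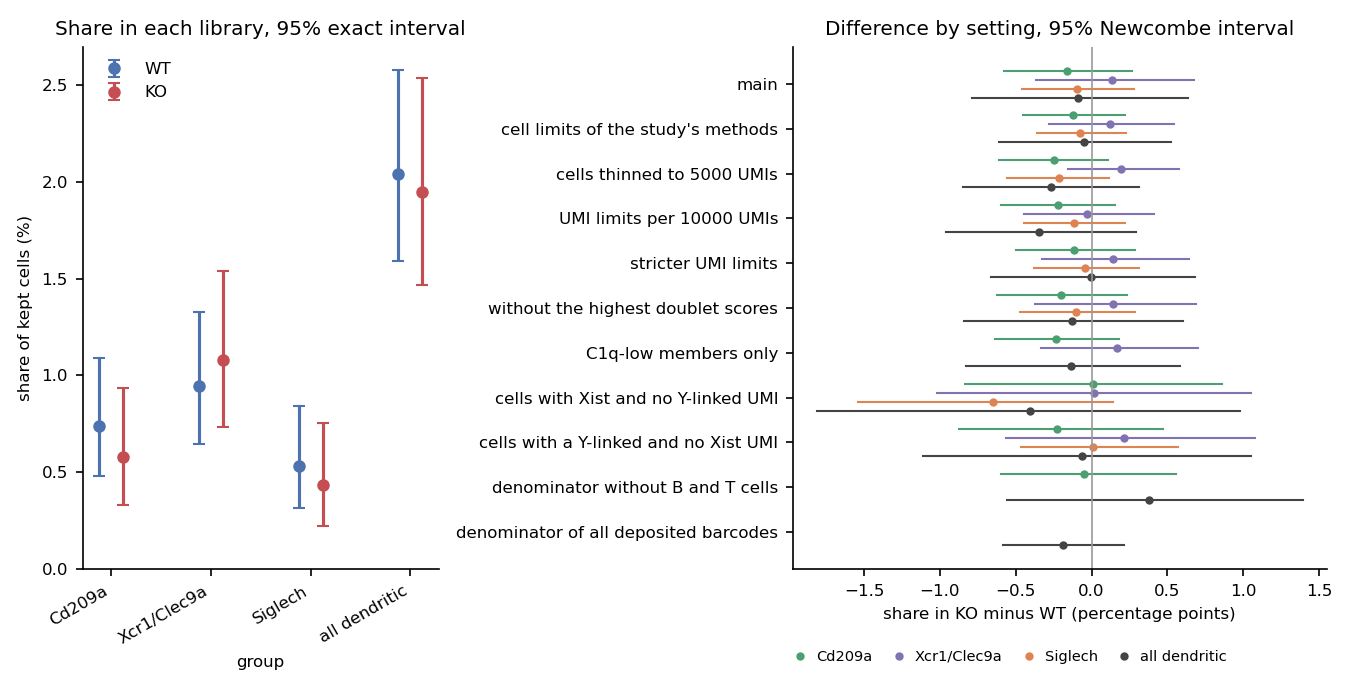
Left, share of each group among kept cells with 95% exact binomial intervals. Right, KO minus WT difference in percentage points with 95% Newcombe intervals for each group under the main and the other settings; every interval crosses 0.

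Among the WT dendritic cells 36.2% were Cd209a, 46.4% Xcr1/Clec9a and 26.1% Siglech cells, and among the KO cells 29.6%, 55.6% and 22.2%, summing to over 100% because some cells met 2 conditions. This makeup depended on depth, since after thinning the shares were 40.5%, 24.3% (11.8–41.2) and 35.1% of 37 WT cells and 26.9%, 50% (29.9–70.1) and 23.1% of 26 KO cells. Proliferation was read from cells with UMIs of at least 3 of 20 cell cycle genes after thinning. Such cells were 5 of 25 in WT and 5 of 16 in KO Cd209a cells (difference 11.2 points, -14.4 to 38.0), 11 of 32 and 5 of 30 in Xcr1/Clec9a cells (-17.7 points, -37.4 to 4.21), and 0 of 17 and 0 of 11 in Siglech cells. Unthinned, the counts were 10 and 12, 23 and 18, and 3 and 5, and the Cd209a difference was then 35.0 points (3.84 to 57.2), in cells that were deeper in KO. Mki67 was at 295 and 229 CPM in Cd209a cells, 212 and 173 CPM in Xcr1/Clec9a cells and 0 and 3.15 CPM in Siglech cells.

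Few genes stood apart between genotypes, and most of those that did in Cd209a and Xcr1/Clec9a cells were led by 1 cell. A gene was counted when its log2 ratio of (CPM + 10) was at least 1 in size. In Cd209a cells 237 of 7056 tested genes (3.36%) passed this fold, 103 higher (1.46%) and 134 lower in KO (1.90%), but among the 5030 genes of which no single cell gave over 25% of the UMIs only 65 did. In Xcr1/Clec9a cells 174 of 8258 genes (2.11%) passed, 53 higher (0.642%) and 121 lower (1.47%), and 50 without genes led by 1 cell. In Siglech cells 298 of 4945 genes (6.03%) passed, 85 higher (1.72%) and 213 lower (4.31%), and 170 without genes led by 1 cell. In this last group the higher genes were 28.5% of those past the fold, or 39.6% after median-of-ratios scaling and 12.9% among genes not led by 1 cell. Genes named next are those with the 5 highest and 5 lowest ratios per group that were not led by 1 cell.

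Dynlt1b and Trim12a were among the 5 lowest ratios in all 3 groups and were also lower in the other kept KO cells. Dynlt1b, a dynein light chain (chr17:6430112-6436296), had 58 UMIs in WT Cd209a cells, 167 in WT Xcr1/Clec9a cells and 49 in WT Siglech cells, and 0 in each KO group. With a floor of 3 UMIs per group, it was at least 15.5-fold, 57.7-fold and 14.7-fold lower in KO. Over the other kept cells it was at 102 CPM (WT) and 0.107 CPM (KO). Trim12a (chr7:104299894-104315466), a member of the Trim5-type antiviral family, had 21, 44 and 28 UMIs in WT and 0 in KO, at least 5.62-fold, 15.2-fold and 8.41-fold lower, and stood at 42.0 and 0.0178 CPM in the other kept cells. Its neighbour Trim30d (chr7:104470014-104507849) was at 101 and 7.04 CPM in Xcr1/Clec9a cells and 105 and 9.44 CPM in Siglech cells, there 3 KO UMIs in 1 cell (log2 ratios -2.71, -3.12 to -2.20, and -2.56, -3.34 to -1.49), with 49.8 and 2.08 CPM in the other kept cells. In Cd209a cells Trim30d was at 30.3 and 9.77 CPM, with all 7 KO UMIs in 1 cell. These 3 genes have related copies, so their counts are uncertain where counting could divide reads between copies, which was not tested. Of copies looked up after these values were seen, Trim12c was at 46.3 and 46.2 CPM and Dynlt1a at 82.8 and 79.8 CPM in Xcr1/Clec9a cells. The mitochondrial gene mt-Nd3 was at 85.2 and 18.1 CPM in Cd209a cells and 72.2 and 14.9 CPM in Xcr1/Clec9a cells and 82.2 and 25.2 CPM in Siglech cells, and at 132 and 38.4 CPM in the other kept cells. Lyve1 lies on the same chromosome as both Trim genes.

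**Figure D5:**
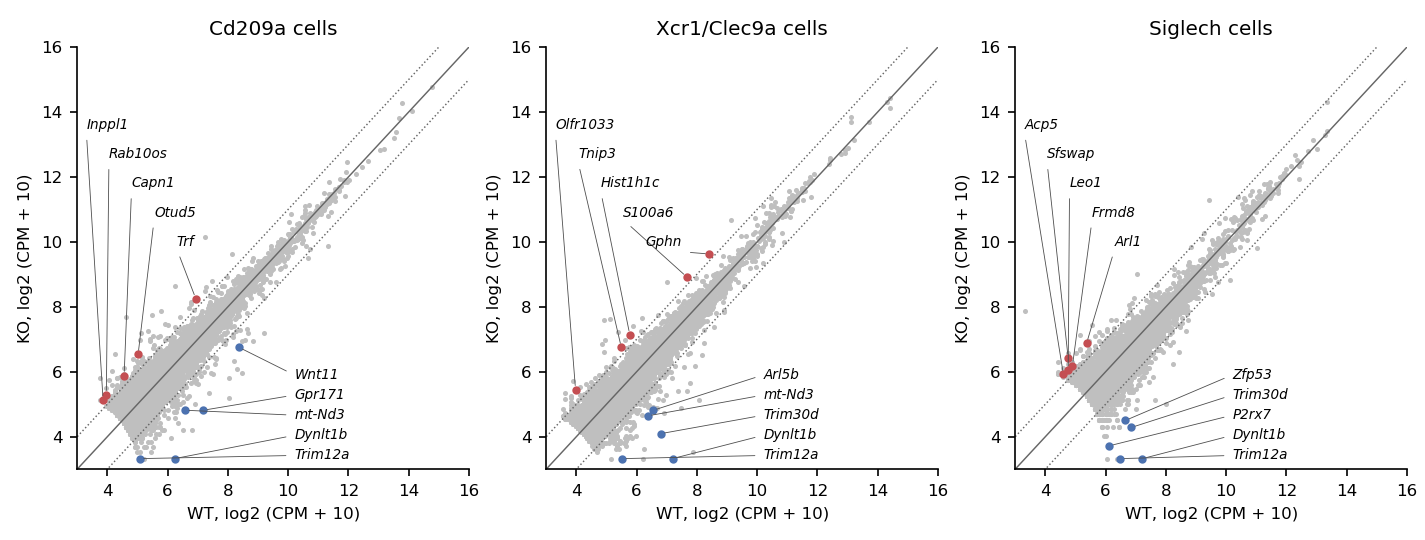
KO against WT level of every tested gene in each group, as log2 (CPM + 10) on both axes; dotted lines mark a log2 ratio of 1 in either direction, and red and blue points are the 5 highest and 5 lowest ratios among genes not led by 1 cell. Dynlt1b and Trim12a lie at 0 CPM in KO in all 3 groups.

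The receptor Gpr171 was at 135 CPM (WT) and 18.1 CPM (KO) in Cd209a cells (log2 ratio -2.36, -2.93 to -1.76; 20 of 25 and 7 of 16 cells), against 17.8 and 24.8 CPM in the other kept cells. Wnt11, a secreted Wnt ligand and a leading gene of the group, was at 319 and 97.7 CPM (-1.61, -1.98 to -1.26; 13 and 7 cells), against 2.48 and 2.56 CPM. The highest ratios in Cd209a cells were those of the deubiquitinase Otud5 (22.4 and 82.4 CPM, 1.51, 0.93 to 2.07), Rab10os, the calpain Capn1, the transferrin gene Trf (112 and 295 CPM, 1.32, 0.99 to 1.65) and the lipid phosphatase Inppl1 (4.48 and 25.1 CPM). In the other kept cells Otud5 was at 52.4 and 57.6 CPM, Trf at 713 and 520 CPM and Inppl1 at 23.0 and 31.6 CPM. In Xcr1/Clec9a cells the linker histone Hist1h1c (44.6 and 131 CPM), Tnip3 (34.9 and 97.8 CPM), the calcium-binding gene S100a6 (193 and 473 CPM), Gphn (331 and 779 CPM) and Olfr1033 (5.68 and 33.6 CPM) had the highest ratios, and the small GTPase Arl5b (82.8 and 18.0 CPM) a low one. S100a6 stood at 766 and 1194 CPM in the other kept cells and Gphn at 826 and 992 CPM there, with 425 and 855 CPM in B cells. Without cells of 2 groups the log2 ratio of Gphn was 0.94, and with the mean of per-cell CPM that of Tnip3 was 0.41. In Siglech cells the highest were Sfswap, Arl1, Acp5, Leo1 and Frmd8, each resting on 16 to 34 KO UMIs. Without cells of 2 groups Acp5 had a log2 ratio of 0.20 and Frmd8 one of -0.031 (1.32 and 1.29 with them), and with the mean of per-cell CPM Leo1 had 0.70. The low ones included P2rx7, the channel opened by extracellular ATP (59.5 and 3.15 CPM, -2.40, -2.84 to -1.17, 1 KO UMI; 131 and 83.8 CPM in the other kept cells), and Zfp53 (90.7 and 12.6 CPM).

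Few antigen presentation genes passed the fold between genotypes, as did few of all tested genes. The share of all tested genes past it was 3.36% in Cd209a, 2.11% in Xcr1/Clec9a and 6.03% in Siglech cells. Counts of 0 from lists this short lie near those shares. In Cd209a cells 0 of 12 tested MHC class II genes (with H2-Ab1, which the condition used) passed the fold. Their median log2 ratio was -0.13 against 0.023 over all tested genes. In Xcr1/Clec9a cells 0 of 12 passed as well (median 0.022 against -0.038). In Siglech cells 1 of 11 was higher (background 1.72%), H2-DMb2 at 22.7 and 62.9 CPM, with 40% of its KO UMIs in 1 cell. The class I list had 0 of 14 genes past the fold in Cd209a cells and 0 of 14 in Siglech cells, and 1 of 15 lower in Xcr1/Clec9a cells (background 1.47%), the class I transactivator Nlrc5 at 73.0 and 27.4 CPM with 30% of its WT UMIs in 1 cell. The class I median was 0.021 in Cd209a cells, -0.23 in Xcr1/Clec9a cells and -0.38 in Siglech cells, where that of all tested genes was -0.084. B2m, the class I light chain, was at 1883 and 1020 CPM in Xcr1/Clec9a cells, short of the fold. On the costimulation list 1 of 10 tested genes was lower past the fold in Cd209a cells (Cd274, background 1.90%) and 0 of 10 passed in Xcr1/Clec9a cells. In Siglech cells 2 of 4 were lower (background 4.31%), Cd83 at 337 and 88.1 CPM and Pvr at 76.5 and 9.44 CPM. Of their WT UMIs, 66.4% and 29.6% were in 1 cell. Cd86 was at 266 and 283 CPM in Cd209a cells and 330 and 232 CPM in Xcr1/Clec9a cells, Cd80 at 260 and 170 CPM and 57.6 and 65.7 CPM, and Cd40 at 44.8 and 57.2 CPM and 21.9 and 39.1 CPM.

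Several activation genes of Cd209a cells were lower in KO, while cytokine and chemokine genes went both ways. Of 9 tested genes on the mature dendritic list 3 were lower past the fold (background 1.90%) and 1 higher (background 1.46%). Traf1, a signal adaptor of the TNF receptor family, was at 388 and 148 CPM (-1.33, -1.64 to -1.03), Cd274, which codes for PD-L1, at 119 and 39.1 CPM (-1.39, -1.91 to -0.87) and Ccr7 at 345 and 112 CPM (-1.55, -1.89 to -1.21). Il1b, the inflammatory cytokine IL-1 beta, was at 2537 CPM (WT) and 917 CPM (KO) (-1.46, -1.58 to -1.33) and found in 21 of 25 and 12 of 16 cells. Over the other kept cells Il1b was at 701 and 651 CPM. The chemokine Ccl17 was higher in KO (141 and 1113 CPM), but 752 of its 797 KO UMIs were in 1 cell. Ccl3 and Ccl4 were lower (303 and 57.2 CPM, 577 and 137 CPM), with 97.8% and 86.0% of the WT UMIs in 1 cell. Tnf (37.0 and 103 CPM) and the chemokine Ccl6 (167 and 438 CPM, in 17 and 14 cells) were higher, with 43.2% and 30.9% of the UMIs in 1 cell, so that 1 of 6 cytokine genes was higher and 1 lower, and 2 of 6 chemokine genes higher and 2 lower. Of the 23 listed genes past the fold in this group, 4 were not led by 1 cell (Traf1, Cd274, Il1b and Sema7a). The share of cells with Ccr7 moved with these genes, and its part in them was not tested. The C1q-positive KO cells are described below.

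A few interferon-stimulated genes were lower in KO in both conventional groups, and 1 cell held much of each. In Cd209a cells 3 of 16 tested genes passed the fold, all lower (background 1.90%), with a median of -0.30. Isg15, a ubiquitin-like modifier, was at 252 and 46.1 CPM, but 77.3% of the WT UMIs were in 1 cell, as were 66.7% of those of Irf7 (90.8 and 26.5 CPM). In Xcr1/Clec9a cells 3 of 19 passed, all lower (background 1.47%): Isg15 (294 and 108 CPM, 48.3% in 1 cell), Ifit2 (234 and 61.8 CPM, 69.1%) and Usp18 (90.9 and 36.0 CPM, 50%). In Siglech cells 0 of 8 passed. The cell cycle list had 3 of 13 genes lower in KO Cd209a cells (background 1.90%): Top2a, Aurkb and Ube2c. Of their WT UMIs, 36.7%, 31.2% and 63.0% were in 1 cell. The share of cycling cells after thinning went the other way in this group (5 of 25 WT and 5 of 16 KO cells). In Xcr1/Clec9a cells 5 of 20 genes were lower (background 1.47%, median -0.77), among them the mitotic cyclins Ccnb1, Ccnb2 and Ccna2. Each of the 5 was led by 1 cell. In Siglech cells Ly6c2 was at 2089 and 881 CPM (-1.24, -1.44 to -1.04; 17 of 18 and 10 of 12 cells) and Cox6a2, a heart-type oxidase subunit typical of pDC, at 414 and 183 CPM (-1.14, -1.58 to -0.71). These were the 2 of 8 listed genes past the fold in this group that were not led by 1 cell, but without cells of 2 groups their log2 ratios were -0.77 and -0.69, and that of Ly6c2 was -0.59 with the mean of per-cell CPM. Irf4 was higher, at 36.8 and 164 CPM, in 7 of 18 and 8 of 12 cells.

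Transcripts known from other cells differed between lists. The neutrophil list summed to at most 40.5 CPM, against 6041 and 8792 CPM in the other kept cells. The 10 cardiomyocyte genes summed to 4.48 and 1.40 CPM in Cd209a cells, 2.43 and 7.04 CPM in Xcr1/Clec9a cells and 0 in Siglech cells, against 176 and 43.4 CPM in the other kept cells. The 15 macrophage genes, of which Timd4 was the most abundant in Cd209a cells, summed to 1148 CPM (WT) and 2644 CPM (KO) in Cd209a cells, against 18164 and 10162 CPM. C1q was under the limit of 10 per 10000 in 25 of 25 WT and 14 of 16 KO Cd209a cells. The 2 KO cells above it had 48.3 and 57.1 per 10000, also past the limit of 30 set for C1q-high macrophages. Both had 0 UMIs of Zbtb46, and they had 0 and 4 UMIs of Flt3. By C1q and Zbtb46 these 2 cells went against the label of the group, but they stayed in it. Their part in the higher KO level of Lyz2 (272 and 778 CPM), Fn1 (14.6 and 195 CPM) and Cd209e (44.8 and 225 CPM) was not tested, and they held 179 and 49 of the 557 KO UMIs of Lyz2. In Xcr1/Clec9a cells the same list summed to 1274 CPM (WT) and 284 CPM (KO), and Apoe (316 and 32 UMIs) had 84.2% of its WT UMIs in 1 cell. In Siglech cells the monocyte list summed to 4843 and 3559 CPM, against 9296 and 10375 CPM in the other kept cells, with Ly6c2 and Plac8 the most abundant in WT and KO. The B cell list there summed to 717 and 828 CPM, against 1235 and 1853 CPM, with Ighm, the IgM heavy chain gene, at 417 and 475 CPM and Ms4a1 and Pax5 at 0. The stromal and endothelial list summed to 150 and 214 CPM in Siglech cells, against 110 and 334 CPM, and Pecam1 was its most abundant gene. The part of other cells in the results was not tested.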

How the data were processed

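The authors deposited counts, not normalized, of UMIs for 32285 genes in each barcode of 2 libraries, made with Cell Ranger 8.0.1 on mm10 per the submitters' processing notes; the study's reporting summary names another version. The study then left out doublets and cells without an assigned heart, using genotypes from the reads. That assignment was not used here. Cells were filtered and grouped as given in the report, and UMIs were summed per group and library. Genes with at least 20 UMIs over both libraries and a UMI in at least 5 cells of the library with more were compared, as log2 of (CPM + 10) ratios. Leading genes needed at least 20 UMIs in each library and a UMI in at least 25% of cells. Intervals were Clopper-Pearson (shares), Newcombe (differences), Poisson (levels) and conditional binomial (ratios), at 95%. Named genes were Lyve1, Cd44, members of 28 gene lists, the 10 leading genes and the 5 highest and 5 lowest ratios per group. Members, lists and tests were chosen with earlier results of these data known. Doublets were scored with scrublet (scanpy 1.11.5), and leaving out the highest scores (98 WT and 73 KO) was an alternative. Python 3.11.15 was run with pandas 2.3.3, numpy 2.4.6, scipy 1.17.1 and matplotlib 3.10.9. Gene positions come from a GENCODE annotation of GRCm38 and promoters from RefSeq. The fold calls were tested on simulated data. Some genes are not reported here.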

Additional observations from a re-analysis of the deposited data

Results flagged for a closer look

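Rab10os, a non-coding RNA gene beside Rab10, went in opposite directions in 2 groups. In Cd209a cells its log2 ratio of KO to WT was 1.33 (counting interval 0.58 to 1.88), with 5 UMIs in 5 WT cells and 21 UMIs in 12 KO cells. In Siglech cells it was -1.89 (-2.76 to -0.82), with 26 UMIs in 12 WT cells and 4 UMIs in 4 KO cells. The difference between the groups was not tested, since each genotype had 1 library.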

How the results depend on the processing

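No paired analysis was possible because each genotype had 1 library, and for the same reason no library could be left out. The differences in share stayed within their main counting intervals under the other cell limits, UMI limits, denominators, thinning and doublet settings, except that of Siglech cells among cells with Xist and no Y-linked UMI (-0.647 points). Genes past the fold in Cd209a, Xcr1/Clec9a and Siglech cells were 576, 569 and 482 with 1 CPM added and 43, 31 and 39 with 50 CPM added, and 65, 50 and 170 without genes led by 1 cell. With at least 50 UMIs they were 130 in Cd209a and 81 in Siglech cells, and with the mean of per-cell CPM 299 in Xcr1/Clec9a cells. Of 36 named or listed ratios past the fold 20 kept their sign but were under 1 in size with 50 CPM added. The same held for 4 without cells of 2 groups and 3 with the mean of per-cell CPM. The ratio of Frmd8 in Siglech cells was also under 1 in size without cells of 2 groups, and reversed, at -0.031 in place of 1.29. The settings on cells of 2 groups, on genes led by 1 cell, on all deposited barcodes, on the thinned makeup of the dendritic cells, on listed genes and on cycling Xcr1/Clec9a and Siglech cells were chosen after seeing the data. With 12 to 32 cells per group and library, depth limits rare transcripts most in Siglech cells, where 4945 genes could be compared.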

Other observations

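Cells with Flt3 outside the 3 conditions were also present. At least 3 UMIs of Flt3 were found in 69 WT and 48 KO kept cells, of which 43 and 34 met a condition. Zbtb46 at 3 or more UMIs was found in 61 and 46 kept cells, of which 25 and 21 met one. The Ccr7 and Fscn1 cells outside the conditions (15 WT and 6 KO) had Cacnb3 at 1126 and 636 CPM, Relb at 977 and 512 CPM and Il12b at 961 and 117 CPM, and Cd209a at 0 and 10.7 CPM. A further 8 WT and 1 KO cells had at least 3 UMIs of Siglech with C1q at or above the limit.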
